A study of Mus musculus with 6 samples.

Results

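Biglycan, decorin, osteonectin (Sparc), thrombospondin 1, tenascin C, periostin, lysyl oxidase and the collagen chaperone Serpinh1 are secreted or secretory-pathway proteins that build and tune the extracellular matrix around muscle cells. Their transcripts were followed through iCLIP data on Quaking (Qk) proteins. The 8 genes were chosen by Ensembl gene ID with the peak numbers and control overlap of these lists in view, and every peak listed under those IDs was kept. Of the 8 IDs, 7 are among the 8233 with a peak in either list, and decorin (Dcn) had no peak. Because the choice used these values, peak numbers, read numbers and overlap are given as a description, and no test was made on them. Bgn (ENSMUSG00000031375) and Dcn (ENSMUSG00000019929) encode small leucine-rich proteoglycans. Sparc (ENSMUSG00000018593), Thbs1 (ENSMUSG00000040152), Tnc (ENSMUSG00000028364) and Postn (ENSMUSG00000027750) encode matricellular proteins. Lox (ENSMUSG00000024529) and Serpinh1 (ENSMUSG00000070436) act on collagen and are neither.

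All 6 iCLIP libraries of the series were made from C2C12 cells, a mouse myoblast line that fuses into myotubes when serum is lowered, after crosslinking with 400 mJ of ultraviolet light. Peak lists were used for 2 of them, both from myoblasts. The anti-PanQk list comes from 1 library pulled down with an antibody to Qk proteins as a whole, and the control list from 1 library pulled down with an antibody to the HA peptide tag. The anti-PanQk myotube libraries (2, after 72 h of differentiation) and the anti-Qk6 and anti-Qk7 myoblast libraries (1 each) were not analysed here. There were 22488 anti-PanQk peaks for 7135 gene IDs, with 204258 reads summed over peaks, and 8496 control peaks for 4497 gene IDs, with 156166 reads. Library depth is unknown, neither library has a replicate, and reads were not scaled. Intervals after a share are exact Clopper-Pearson 95% intervals; they cover counting error only, and neighbouring peaks of a gene are not independent. A peak marks crosslinked RNA fragments and is no measure of the level of a transcript, which these lists do not give.

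Qk proteins are RNA-binding proteins of the STAR family that act in splicing, mRNA stability, localisation and translation, and their isoforms share the RNA-binding domain and differ at the C-terminal tail. In iCLIP, ultraviolet light fixes a protein to the RNA it touches, an antibody recovers the complex, and the sequenced fragments mark the contact. A control pull-down with an unrelated antibody marks RNA that is recovered without the protein under study. Matricellular proteins are secreted proteins that sit in the matrix without forming its fibres, and they modulate adhesion and growth factor signals. Small leucine-rich proteoglycans such as biglycan and decorin bind collagen and growth factors, and biglycan is also known in muscle for its contact with the dystrophin-associated complex.

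The 8 genes together carried 252 anti-PanQk peaks and 44 control peaks. An anti-PanQk peak is called control-free where no control peak shares at least 1 nt with it on the same strand. Of the 252 peaks, 105 were control-free (41.7%, 35.5 to 48.0), beside 86.0% of all anti-PanQk peaks in the list. The genes fell into unlike sets. Bgn and Sparc held 208 of the 252 peaks, and 62 of these 208 were control-free (29.8%, 23.7 to 36.5). Thbs1, Tnc, Postn, Lox and Serpinh1 held the other 44, and 43 of the 44 were control-free (97.7%, 88.0 to 99.9). Of these 43, 23 were in Thbs1 and 1 in Postn, genes without any control peak. Of the 44 control peaks, 32 were overlapped by an anti-PanQk peak (72.7%, 57.2 to 85.0), whereas 70.5% of all control peaks were not; 31 of the 32 lay in Bgn and Sparc. Peaks in both lists were present for 5 of the 7 genes with a peak and for 41.3% of all gene IDs with a peak. More anti-PanQk than control peaks were listed for all 7 genes with a peak, as for 69.2% of all gene IDs, and the anti-PanQk list is the longer one by a ratio of 2.65.

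**Figure D1:**
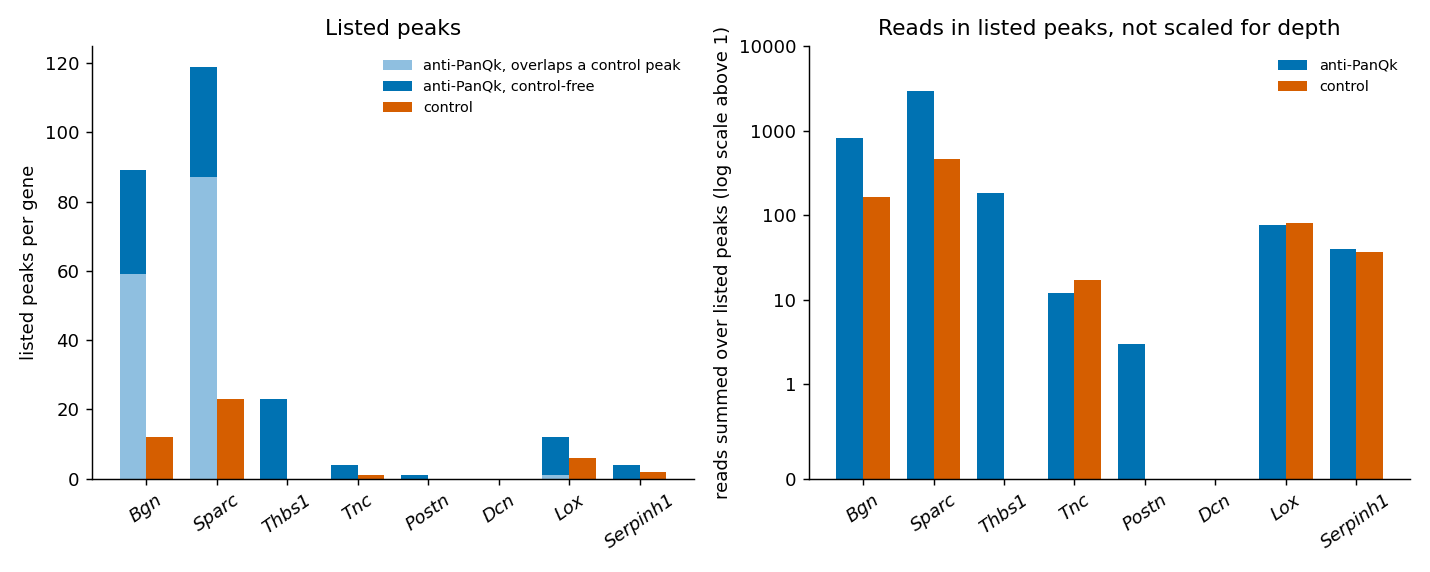
Listed peaks (left, linear axis) and reads summed over listed peaks (right, log scale above 1) for each gene in the anti-PanQk and the control library, 1 library each, with no error bars because there are no replicates. Sparc with 119 and Bgn with 89 anti-PanQk peaks stand above the other genes in both lists, Thbs1 and Postn have no control bar, and Dcn has no bar in either list.

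Bgn, which encodes the proteoglycan biglycan, had 89 anti-PanQk peaks and 12 control peaks on the plus strand of the X chromosome, between positions 70736123 and 70741246 of the mm9 build. By number of anti-PanQk peaks it ranked 6 of 7135 gene IDs. Summed over its peaks there were 812 anti-PanQk reads and 165 control reads. Nearly all of them lay at the downstream end. In the anti-PanQk list 87 of 89 peaks (97.8%, 92.1 to 99.7) had their centre in the last 25% of this span, between 70740123 and 70741246, a block of 1124 nt with 801 reads. The control list showed the same placement, with 11 of 12 peaks (91.7%, 61.5 to 99.8) between 70740210 and 70741003.

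The anti-PanQk peaks of Bgn were short and packed edge to edge. Their median width was 5 nt (range 1 to 29), against 41 nt (7 to 98) for its control peaks, and 66 of the 89 abutted a neighbour without a gap (74.2%, beside 14.8% of all anti-PanQk peaks). The longest unbroken run held 22 peaks over 175 nt, from 70740509 to 70740683. The number 89 therefore counts listed segments and not separate contact sites. Counted as bases, anti-PanQk peaks covered 647 nt of Bgn and control peaks 555 nt, and 399 nt were covered in both lists, a share of 61.7% of bases under anti-PanQk peaks and 71.9% of bases under control peaks.

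The strongest anti-PanQk peak of Bgn, of 48 reads at 70740311 to 70740326, overlapped a control peak, as did those of 45 reads at 70740637 to 70740644 and 31 reads at 70740578 to 70740596. The strongest control peak, of 28 reads, lay at 70740580 to 70740677, under the latter pair. Control-free peaks numbered 30 of 89 (33.7%, 24.0 to 44.5) and were mostly weak, with a median of 4 reads against 8 for the overlapped ones. The exception was a control-free peak of 37 reads at 70741181 to 70741200, with a deposited p-value of 9.82e-46, which lay 177 nt beyond the nearest control peak. It belonged to the last 243 nt of the stretch, where 8 anti-PanQk peaks with 63 reads were listed and no control peak. Besides this peak, 3 control-free peaks of Bgn had p at most 1e-06, with 10 or 11 reads each, and they lay 2 to 18 nt from a control peak. At the upstream end stood 2 control-free peaks, of 5 reads at 70736123 to 70736144 and 6 reads at 70736744 to 70736770, with a control peak of 12 reads between them at 70736323 to 70736361.

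**Figure D2:**
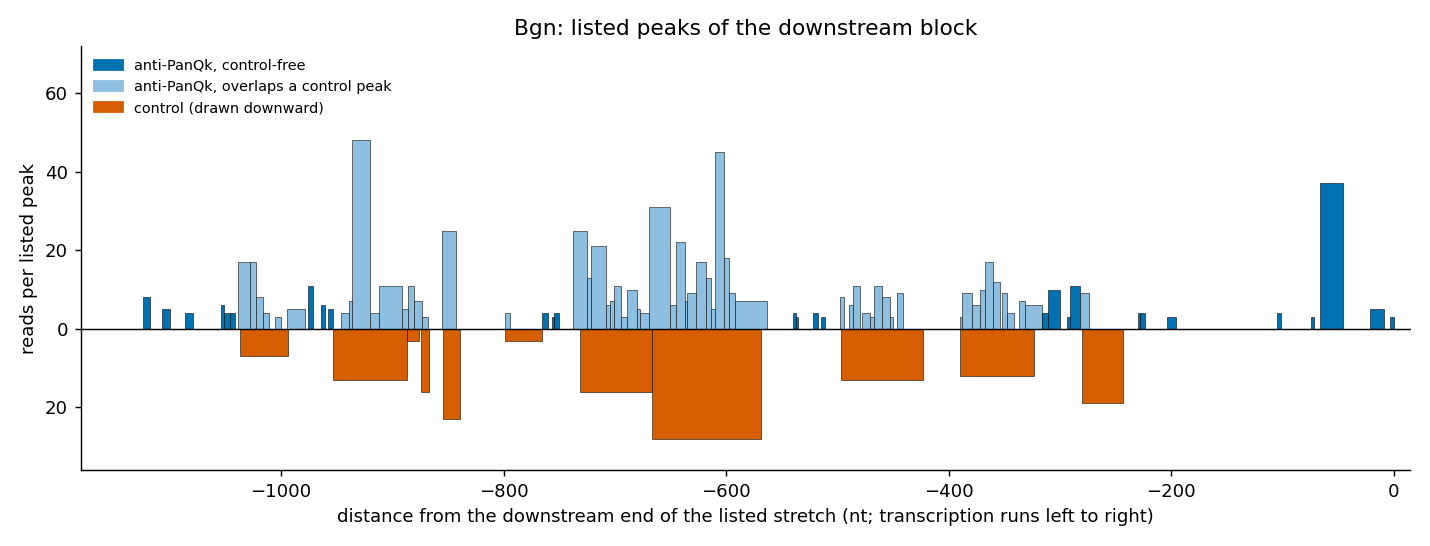
Listed peaks of Bgn over the last 1124 nt of its stretch, with the distance from the downstream end in nt on the horizontal axis and reads per listed peak on the vertical axis, anti-PanQk upward and control downward, bar width to scale. Most tall anti-PanQk bars stand over a control bar, and the dark bar of 37 reads near the right end has no control bar below it.

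Dcn, the close relative of Bgn that encodes decorin and is known for holding TGF-beta and myostatin in the matrix, had no listed peak in either library. The lists hold only peaks of 3 reads or more, so this says that no cluster of Dcn reached the lists and nothing about fewer reads.

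Sparc encodes osteonectin, a collagen-binding matricellular glycoprotein. It carried 119 anti-PanQk and 23 control peaks on the minus strand of chromosome 11, between 55208026 and 55233327, and ranked 3 of 7135 gene IDs by number of anti-PanQk peaks. With 2922 reads in the anti-PanQk library it ranked 4 by listed reads, and the control library listed 466 reads. This was 1.43% of all reads in anti-PanQk peaks and 0.298% of those in control peaks. These are shares of sums over peaks that may count a read more than once, so no interval is given. As in Bgn, the peaks crowded at the downstream end: 115 of the 119 anti-PanQk peaks, with 2882 reads, lay in 1402 nt from 55208026 to 55209427, and 20 of the 23 control peaks lay in the same stretch. Their median width was 6 nt (1 to 48) against 41 nt (6 to 73) in the control, and 101 of the 119 abutted a neighbour (84.9%).

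The largest anti-PanQk peaks of Sparc, of 355, 285 and 224 reads, were at positions where the control library also had its largest peaks. The largest anti-PanQk peak held 355 reads at 55208074 to 55208101, and the control peak it overlapped, at 55208075 to 55208115, held 63 reads, the most of any control peak of Sparc. Anti-PanQk peaks of 285 reads at 55208170 to 55208180 and 224 reads at 55208184 to 55208188 overlapped control peaks of 40 reads at 55208174 to 55208181 and 52 reads at 55208182 to 55208188. The next strongest, of 162 reads at 55208069 to 55208073 and 153 reads at 55208954 to 55208963, overlapped weaker control peaks, of 16 and 10 reads. The last 200 nt of the stretch held 1595 of the 2922 anti-PanQk reads (54.6%) and 234 of the 466 control reads (50.2%). Over 13 windows of 100 nt with any reads, the anti-PanQk and control reads of Sparc rose and fell together (Spearman's rho 0.94 across windows, which share their 2 libraries). For Bgn the same value was 0.56 over 12 windows.

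Summed over peaks, listed reads were higher in the anti-PanQk library in each window of these blocks that held control reads. For Sparc the ratio of anti-PanQk to control reads ran from 3.32 to 9.44 over 11 windows, with a median of 7.13. For Bgn it ran from 1.21 to 29.0 over 8 windows, with a median of 6.31, and the highest value rests on 3 control reads. These sums run over many short abutting anti-PanQk peaks and few wide control peaks, and may count a read more than once. By the strongest peak per window, the anti-PanQk library was higher in 10 of the 11 Sparc windows and 6 of the 8 Bgn windows. The exceptions were 16 against 28 control reads at 500 to 600 nt from the downstream end of Sparc, and 11 against 19 and 11 against 13 at 200 to 300 and 400 to 500 nt in Bgn.

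Control-free peaks of Sparc numbered 32 of 119 (26.9%, 19.2 to 35.8), and most lay beside a control peak. The strongest, of 71 reads at 55208945 to 55208950, abutted a control peak without a gap. Just 3 of the 119 Sparc peaks (2.52%) and 7 of the 89 Bgn peaks (7.87%) were more than 100 nt from any control peak, beside 78.2% of all anti-PanQk peaks. These 3 stood upstream of the block: 12 reads at 55233290 to 55233327, which lay 13226 nt from a control peak, 6 reads at 55223491 to 55223500, at 3427 nt, and 17 reads at 55223430 to 55223477, at 3366 nt.

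**Figure D3:**
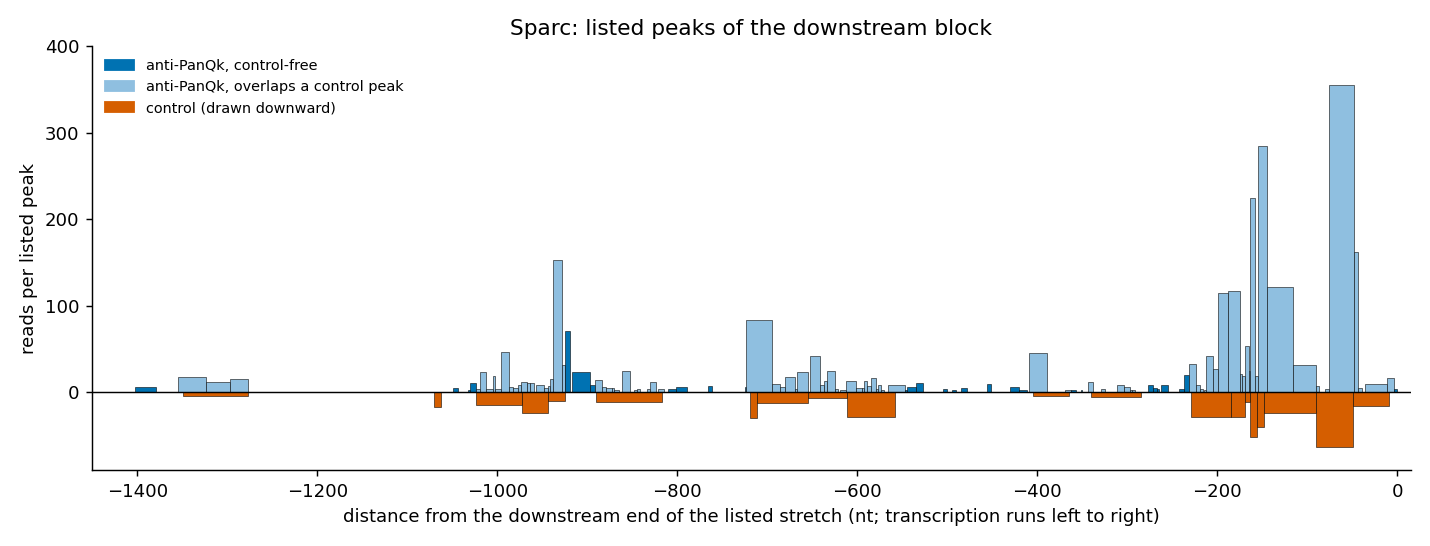
Listed peaks of Sparc over the last 1402 nt of its stretch, drawn as for Bgn, with distance from the downstream end in nt and reads per listed peak, anti-PanQk upward and control downward. The tallest anti-PanQk bars, up to 355 reads, and the tallest control bars, up to 63 reads, stand in the last 200 nt.

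The high overlap of Bgn and Sparc was not limited to strong peaks. In the whole list overlap rises with reads, from 2.72% (2.41 to 3.07) of anti-PanQk peaks of 3 reads to 79.5% (75.3 to 83.3) of those over 50 reads. In Bgn 6 of 13 peaks of 3 reads overlapped a control peak (46.2%, 19.2 to 74.9), and in Sparc 8 of 14 did (57.1%, 28.9 to 82.3). At 10 to 26 reads the overlapped share was 19 of 22 in Bgn (86.4%, 65.1 to 97.1) and 27 of 34 in Sparc (79.4%, 62.1 to 91.3), against 38.5% (36.7 to 40.3) in the whole list. The other genes had 13 peaks of 10 to 26 reads, and 0 of these overlapped a control peak. Of the 13, 8 were in Thbs1, which has no control peak, so these could not overlap one. Lox held 3 and Serpinh1 held 2, too few to set beside the shares above. Control peaks covered 555 nt of Bgn and 844 nt of Sparc, mostly within the downstream blocks. In the whole list, 78.2% of anti-PanQk peaks lay more than 100 nt from any control peak. Shares at the same read number therefore compare peaks in unlike surroundings.

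Short abutting peaks were also found in other peak-rich genes. Of the 7135 gene IDs with an anti-PanQk peak, 18 had 50 or more (0.252%). In 11 of these 18 the median peak width was 10 nt or less, while gene IDs with a single peak had a median width of 32 nt. Abutting peaks made up 67.9% of the peaks of the 18 genes and 5.23% of those in genes with 2 to 4 peaks. The control-free share over the 18 genes had a median of 55.7% and ranged from 24.3% to 100%, and 2 of the 18 were at or below Sparc and 3 at or below Bgn, counting the genes themselves. The 5 gene IDs nearest to Bgn in peak number, control peak number and strongest anti-PanQk peak, by the summed difference of log2(value + 1) over 8226 IDs, were ENSMUSG00000029840, ENSMUSG00000017466, ENSMUSG00000022285, ENSMUSG00000029761 and ENSMUSG00000025132. They had 59 to 93 anti-PanQk and 9 to 13 control peaks, the values they were matched on. Their median peak widths, which were not matched, ran from 6 to 29 nt. Their control-free shares ran from 41.9% to 74.1%, all above the 33.7% of Bgn, which was chosen with its overlap in view. Among the 11 gene IDs with 50 or more peaks and a median width of 10 nt or less, the control-free fraction ranged from 0.243 to 0.741. Those just above Bgn (0.337) had 0.352, 0.375 and 0.381.

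**Figure D4:**
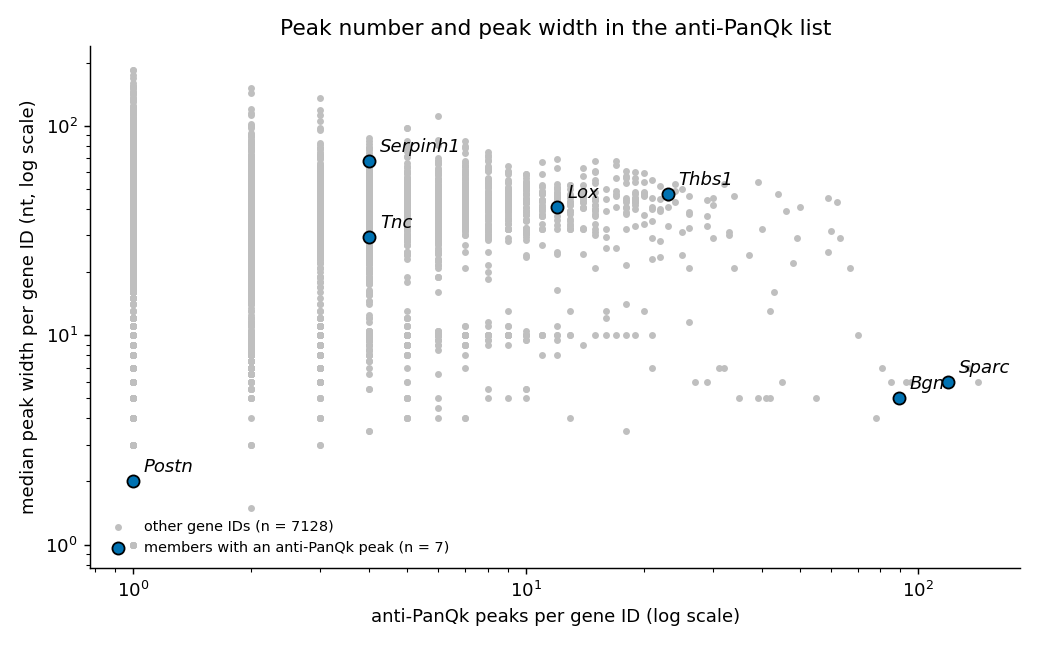
Median width of anti-PanQk peaks (nt, log scale) against the number of anti-PanQk peaks (log scale) for each of the 7135 gene IDs, with the 7 genes described here that have an anti-PanQk peak drawn large and named. Bgn and Sparc lie at the lower right, with many peaks and median widths of 5 and 6 nt, whereas Thbs1, Lox, Serpinh1 and Tnc have median widths of 29.5 to 68 nt. The single peak of Postn is 2 nt wide.

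Thbs1 encodes thrombospondin 1, a matricellular protein that activates latent TGF-beta and restrains angiogenesis. It had 23 anti-PanQk peaks with 181 reads and no control peak, on the plus strand of chromosome 2 between 117937699 and 117952837. A gene ID without a control peak is common, at 52.4% of the anti-PanQk list, and among the genes described here Thbs1 and Postn were of this kind. There were 64 gene IDs with 23 peaks or more (0.897% of the anti-PanQk list), and 2 of them (0.0280%) had no control peak, Thbs1 and ENSMUSG00000026193, the latter with 50 peaks. That limit is the peak number of Thbs1 itself. With 10 peaks or more, 22 gene IDs had no control peak, among them ENSMUSG00000021109 with 19 peaks and 187 reads. The nearest control peak on the strand lay 863614 nt away.

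The Thbs1 peaks had another form than those of Bgn and Sparc. Their median width was 47 nt (3 to 128), and 4 of the 23 abutted a neighbour. The last 2000 nt of the stretch held 14 of them, with 146 of the 181 reads. The strongest pair, of 17 reads at 117951703 to 117951741 and 18 reads at 117951742 to 117951823, adjoined each other, and further peaks of 14 reads stood at 117952064 to 117952132 and 117952487 to 117952546. The 9 peaks upstream of this part held 3 to 7 reads each. Of the 23 peaks, 8 had p at most 1e-06 (34.8%, beside 19.4% of all anti-PanQk peaks).

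Tnc and Postn, the genes of tenascin C and periostin, matricellular proteins that appear in regenerating and remodelling tissue, were barely represented. Tnc had 4 anti-PanQk peaks of 3 reads each on the minus strand of chromosome 4, spread over 34.7 kb between 63620999 and 63655649, and 1 control peak of 17 reads at 63661802 to 63661818, upstream of all of them. Postn had a single anti-PanQk peak of 3 reads and 2 nt at 54189196 to 54189197 on the plus strand of chromosome 3, and no control peak. A read number of 3 is the smallest in either list and made up 43.6% of all anti-PanQk peaks, so these entries are at the limit of what was listed.

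Lox encodes lysyl oxidase, which oxidises lysines of collagen and elastin so that the fibres crosslink. It had 12 anti-PanQk peaks with 76 reads and 6 control peaks with 81 reads on the minus strand of chromosome 18, between 52675741 and 52688453. All 12 anti-PanQk peaks lay in the last 3000 nt of the stretch, and 4 of the 6 control peaks did. Of the 12 peaks, 11 were control-free (91.7%, 61.5 to 99.8), and the 1 overlapped, of 4 reads at 52677469 to 52677521, met a control peak of 3 reads. The strongest were 14 reads at 52676895 to 52676957, 13 reads at 52678213 to 52678297 and 11 reads at 52678598 to 52678664, and they lay 162, 183 and 137 nt from the nearest control peak. The control peaks reached 22 reads, at 52688410 to 52688453, where the anti-PanQk list had none. The lists thus interleaved along Lox, and 29 nt were covered in both, out of 563 nt in the anti-PanQk and 214 nt in the control list.

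Serpinh1 encodes the endoplasmic reticulum chaperone that binds procollagen as it folds. It had 4 anti-PanQk peaks with 40 reads and 2 control peaks with 37 reads on the minus strand of chromosome 7, between 106493937 and 106500178. The anti-PanQk peaks, of 16 reads at 106494144 to 106494247, 10 reads at 106493937 to 106494008, 9 reads at 106497533 to 106497591 and 5 reads at 106494321 to 106494384, were all control-free. The control peaks held 22 reads at 106494457 to 106494475 and 15 reads at 106500162 to 106500178. The former lay 72 nt upstream of the nearest anti-PanQk peak. Of the 4 anti-PanQk peaks, 3 had p at most 1e-06.

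**Figure D5:**
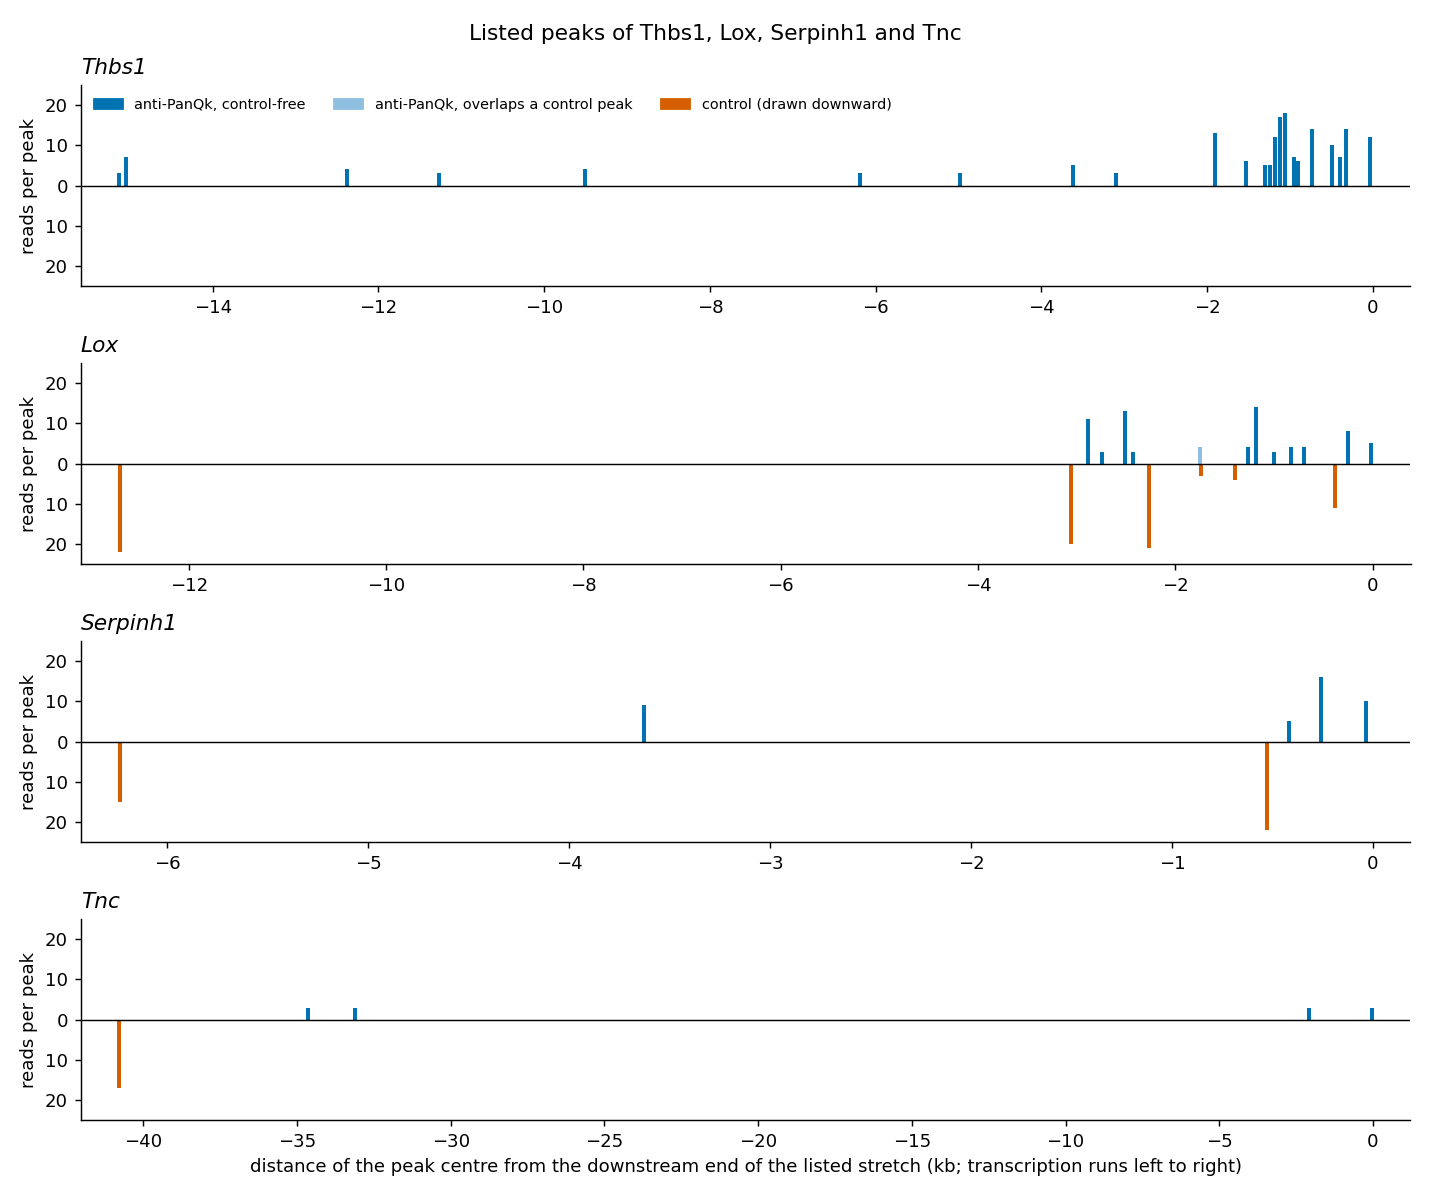
Reads per listed peak (vertical axis) against the distance of the peak centre from the downstream end of each gene's listed stretch (kb), for Thbs1, Lox, Serpinh1 and Tnc, anti-PanQk upward and control downward. Thbs1 has no control line, and its tallest lines are in the last 2 kb. In Lox and Serpinh1 the control lines stand between or upstream of the anti-PanQk lines, apart from a Lox control peak that overlaps an anti-PanQk peak.

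The balance of listed reads differed among the genes with peaks in both lists. Over the 3399 gene IDs with peaks in both, the ratio of anti-PanQk to control reads had a median of 0.722 (quartiles 0.312 and 1.67), unscaled for depth. Sparc had a ratio of 6.27, and 215 of the 3399 IDs were at or above it. Bgn had a ratio of 4.92, with 294 IDs at or above it. Serpinh1 at 1.08, Lox at 0.938 and Tnc at 0.706 lay within the quartiles. These sums cover regions cut differently in the lists, with median widths of 5 and 6 nt in Bgn and Sparc against 41 nt in their control peaks. By strongest peak the ratio was 5.63 for Sparc, from 355 and 63 reads, and 1.71 for Bgn, from 48 and 28 reads, beside a median of 0.400 over the 3399 IDs (quartiles 0.227 and 1.00). On that measure 133 IDs were at or above Sparc and 528 at or above Bgn, and Serpinh1 stood at 0.727, Lox at 0.636 and Tnc at 0.176.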

How the data were processed

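The data are 2 peak lists deposited by the authors, assigned to the anti-PanQk and the anti-HA myoblast library by the library name in each track line. The authors called peaks with CLIPper on mm9, per the file headers; the header tags rptfilt and premRNA are not explained there. The submitters' processing notes also name Bowtie2 and TopHat, without a version. Each peak carries a deposited p-value (largest 0.0210 for anti-PanQk, 0.0199 for the control), and the last part of its deposited name was taken as its read count, which the headers do not define. No source used here says how the authors counted a read that spans abutting peaks, so summed reads are sums over peaks and may count a read more than once.

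Positions are 1-based. A stretch runs from the first to the last peak of a gene ID in either list and is not the annotated gene. Overlap was counted on the same strand, with Python 3.11.15, pandas 2.3.3, numpy 2.4.6 and scipy 1.17.1, by code tested on simulated peaks. Entries were counted as listed. No other gene ID had a peak within the stretches of these genes, on either strand (0 of both lists). Symbols are those given with the choice of genes. For the 7 genes with a peak, the chromosome was the one RefSeq lists for the symbol, and coordinates of that table, on another build, were not used. Genes and lists were chosen with earlier results of these data known. All 8 genes are described, with their strongest anti-PanQk, control-free and control peaks, and every peak where a gene has at most 5. Wider matrix gene lists and myoblast markers could not be paired with the IDs, and transcript regions, motifs and sequences under the peaks need an mm9 genome and annotation, so these were not analysed here. With 1 library per antibody no difference between the libraries was tested. Alternatives covered the p-value, overlap, distance, strand, list length, read number, merging, repeated intervals and the control peaks of 10 to 26 reads. The strongest peak in place of summed reads was added after seeing the data.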

Additional observations from a re-analysis of the deposited data

How the results depend on the processing

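The contrast between Bgn with Sparc and the other genes kept its order in every alternative run, while its size moved. This order was in part fixed beforehand, because the genes were split by these same overlap values. Thbs1 and Postn have no control peak, and the Tnc peaks lie at least 6152 nt from theirs, so no overlap rule used here could reach them. The control-free shares of Bgn and Sparc, of the other genes and of all 8, at 29.8%, 97.7% and 41.7%, became 4.81%, 90.9% and 19.8% when a control peak within 100 nt counted as overlap (50 control-free peaks instead of 105). They became 22.6%, 100% and 33.5% with equal list lengths (57 peaks) and 67.8%, 97.7% and 73.0% when the control peaks of 10 to 26 reads, a class picked with these data known, were left out (184 peaks, with 18 control peaks left of 44). Merging peaks within 50 nt gave 50.0%, 97.1% and 86.4%, from 38 control-free of 44 merged peaks and 20 merged control peaks. With that class left out, Bgn had 67 control-free peaks of 89 and Sparc 74 of 119, against 30 and 32. The whole-list share in these 4 settings was 78.2%, 69.2%, 91.4% and 91.6%, so that Bgn and Sparc stayed below it in each.

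Limits on the peaks admitted changed the counts by construction. With p at most 1e-06 in both lists there were 103 anti-PanQk peaks, 40 of them free of the 34 control peaks left (28 of them free of any listed control peak), the other genes were at 100%, all Bgn peaks (100%) lay in the last 25% of its span, and the median read number and width were 15 reads and 9 nt, against 7 reads and 6.5 nt. At least 5 reads in both lists left 63 control-free peaks, the other genes at 100% and a median of 10 reads, and equal list lengths also gave a median of 10 reads. Tnc and Postn had no anti-PanQk peak left in these 3 settings, and Lox had 3 with the p-value limit and 5 in the other settings. Merging gave a median of 5.5 reads for the strongest part and 43 nt, and put 60.0% of 5 merged Bgn peaks in the last 25% of its span, since the block became few pieces. An overlap of 50% of the shorter peak moved none of the summary values beyond their interval or by more than 1.5 times. Strand ignored and each interval once left every summary value unchanged. No other gene ID had a peak within these stretches, so these settings are no check on these genes. For the position in Bgn, the span from first to last listed peak is the span already used, so its 97.8% could not differ.

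No paired analysis was possible because each list holds 1 library, and for the same reason no replicate was left out. The unknown depth limits every comparison of read numbers between the lists.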

Other observations

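Peak names carry a running number per gene that skips values, and what was given the skipped numbers is not stated in the sources used here. The highest number in the anti-PanQk list was 203 for Bgn and 196 for Sparc, so at most 43.8% and 60.7% of the numbers appear in the list. The control numbers ended at 18 and 26. For Thbs1 the highest number was 32 (71.9%) and for Lox 19 (63.2%).

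Of the 44 control peaks of these genes, 59.1% held 10 to 26 reads, close to 63.2% in the whole control list, where peaks of this size are the most frequent class. In the anti-PanQk list 12.8% of all peaks were of this size. At Tnc and Serpinh1 all 3 control peaks were of this size and none overlapped an anti-PanQk peak. At Bgn and Sparc 19 of 35 were, and their part in the overlap of these genes is given above.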
